A study of Homo sapiens with 4 samples.

Results

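Expression of 9 transcription factors that mark the subtypes of pancreatic ductal adenocarcinoma was examined in PK-1, an established human line that the study describes as well differentiated. The members were taken by gene symbol as a fixed list, GATA6, HNF4A, FOXA1, FOXA2 and ELF3 as gland-type factors, and TP63, KLF4, KLF5 and GRHL2 as squamous or broad epithelial factors. All 9 were found among the 53826 entities of the deposited tables, each once. Messenger RNA was sequenced in 4 libraries, 1 per condition. Stable cells were infected with the retroviral vector pMXs, carrying either SPRR1A with a FLAG tag or, as the control, the red fluorescent protein DsRed. Transient cells were transfected with the plasmid pCAG, carrying FLAG-tagged SPRR1A or green fluorescent protein (GFP), and RNA was taken 48 h later. SPRR1A is a structural protein of the squamous cell envelope whose gene PK-1 also transcribes without a vector, according to the study, and the sources used here do not say that the stable cells are a clone. Each condition is 1 library, so the differences below were not checked in replicates and carry no p-value.

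Classical tumors keep a gland-like program in which GATA6, HNF4A and the forkhead factors FOXA1 and FOXA2 hold the identity of endoderm-derived epithelium. Basal-like or squamous tumors lose part of that program, and in these tumors TP63, the master regulator of stratified epithelium, can switch on keratins and adhesion genes of the basal layer. KLF4, KLF5, GRHL2 and ELF3 are active in many epithelia of either kind. KLF4 drives late differentiation in skin and gut, and KLF5 is found in dividing epithelial cells. GRHL2 maintains junction genes, and ELF3 is an epithelial ETS factor, counted here with the gland-type ones.

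The unit is the log2 of TPM, in which reads are divided by transcript length and each library is scaled to a total of 1000000, so that levels of different genes can be set side by side. No deposited value lies below 0, so a listing at 0 stands for a TPM of 1 or less. Between 12964 and 13558 entities per library were above this floor. The depth in reads is unknown. As a check of the labels, the log2 TPM of SPRR1A was 10.93 against 0.75 in the stable pair of libraries and 16.60 against 3.56 in the transient pair, higher in each library labelled SPRR1A. All 6 markers of duct-like epithelium (KRT7, KRT8, KRT18, KRT19, EPCAM and CDH1) were above the floor in each library, from 7.03 for CDH1 in stable DsRed to 12.94 for KRT18 in the same library, and all 6 islet markers were listed at 0. An entity whose TPM reached 5 in both of the libraries compared is called well expressed below.

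PK-1 cells expressed 8 of the 9 factors, from both sides of the subtype divide. ELF3 was the highest by the mean of the 4 libraries, followed by KLF4, KLF5, GRHL2, FOXA2, TP63, GATA6 and FOXA1, and HNF4A was listed at 0 in every library. The ranges over the 4 libraries overlapped between neighbors in this order for ELF3 and KLF4, KLF4 and KLF5, KLF5 and GRHL2, and FOXA2 and TP63. They did not overlap between GRHL2 and FOXA2, between TP63 and GATA6, or between GATA6 and FOXA1.

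**Figure D1:**
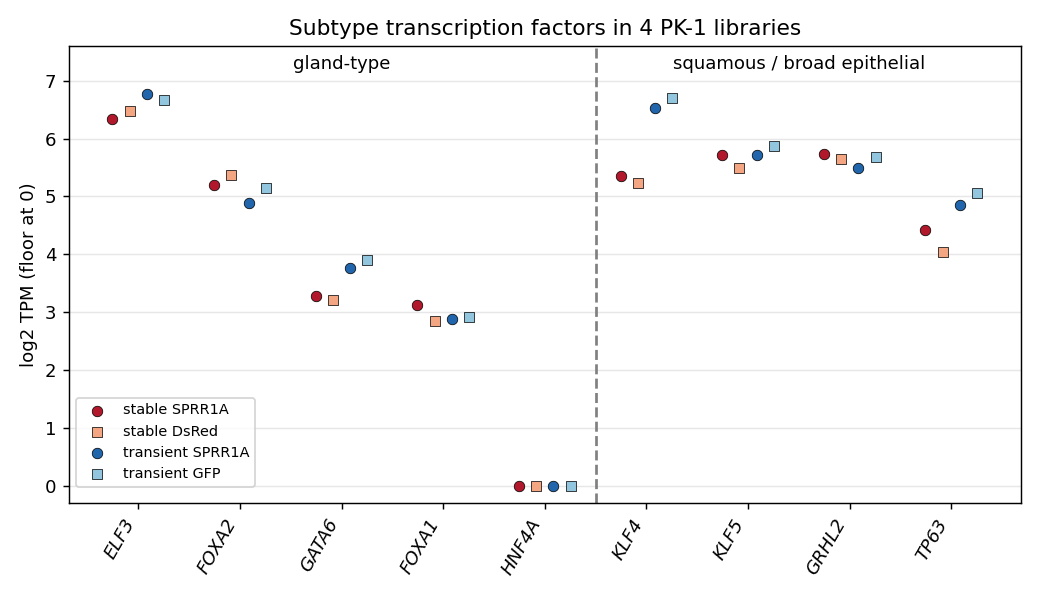
Log2 TPM of the 9 transcription factors (vertical axis, floor at 0) in the 4 PK-1 libraries, 1 point per library, with gland-type factors on the left and squamous or broad epithelial factors on the right. HNF4A lies at 0 in all 4 libraries, and KLF4 shows the widest range, 1.48 on the log2 scale, with both transient libraries above both stable ones.

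Among the gland-type factors, ELF3 had a log2 TPM of 6.33 with SPRR1A and 6.48 with DsRed in stable cells, and of 6.77 with SPRR1A and 6.66 with GFP in transient cells. These levels lay above those of 84.2% to 90.1% of the entities above the floor. FOXA2, a pioneer factor that opens chromatin of endodermal genes, was at 5.19, 5.37, 4.89 and 5.15 in the same order of libraries, which is kept wherever 4 values are given. FOXA1, its close relative, was at 3.13, 2.85, 2.89 and 2.92, so that FOXA2 exceeded FOXA1 by 4.01-fold to 5.74-fold within each library. The third member of this family, FOXA3, was listed at 0 throughout. On GRCh38, ELF3 lies on chromosome 1 from 202010587 to 202017183, FOXA1 on chromosome 14 from 37589552 to 37595249 and FOXA2 on chromosome 20 from 22580998 to 22585490.

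GATA6, the zinc finger factor whose loss marks basal-like tumors, was expressed at a modest level. The gene spans chromosome 18 from 22169589 to 22202528. Its log2 TPM was 3.28 and 3.21 in stable cells with SPRR1A and DsRed, and 3.77 and 3.89 in transient cells with SPRR1A and GFP, or 9.25 to 14.9 TPM. Both transient libraries were above both stable ones. The share of all entities in this order was not counted, here or for the other members. GATA3, better known from breast and urinary tract epithelium and from T cells, was the highest GATA factor and exceeded GATA6 by 4.75-fold to 5.24-fold within each library. GATA2, a factor of blood and endothelium, was at 1.61, 1.11, 2.42 and 2.69. It was the only GATA gene past 2-fold in any comparison, with 1.57 between transient GFP and stable DsRed cells. At 2.17 TPM in stable DsRed cells, GATA2 was not well expressed there. GATA1, GATA4 and GATA5 were listed at 0.

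HNF4A, a nuclear receptor of liver, gut and pancreas, was the single member without a value above the floor, and its relative HNF4G was also listed at 0 in all 4 libraries. HNF4A spans chromosome 20 of GRCh38 from 44355699 to 44434596. GENCODE 44 places its protein-coding transcripts at a pair of distant start regions, with 4 transcripts from 44355699 to 44355805 and 10 from 44401239 to 44401401, known as the P2 and P1 promoters. The gene-level value covers both, so a listing at 0 applies to their sum. The antisense HNF4A-AS1 and the microRNA MIR3646, which overlap the gene, were listed at 0 as well. All 20 housekeeping genes that were looked up were above the floor in each library, the lowest at 4.01. KLF13, a widely expressed factor, was nonetheless listed at 0 in all 4, so a listing at 0 need not mean that a transcript is missing from the cells.

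Because the value of HNF4A joins 2 start regions, the 250 bases before each are shown, from RefSeq on GRCh38.p14, plus strand, chr20:44355449-44355698 for P2 and chr20:44400989-44401238 for P1. Capitals mark matches on either strand to motifs that were chosen after the sequences were read. GGGCGG is the GC box bound by SP and KLF factors, and CACCC is the shorter box that many KLF factors also bind. TATAAA is the TATA box, which positions the start of transcription in some genes. TGANTCA is bound by AP-1, the dimer that FOSL1 joins. TGTTTNC was used for forkhead factors such as FOXA1 and FOXA2. AGATAA was used for GATA factors. Adjoining capitals can hold more than 1 motif.
HNF4A P2: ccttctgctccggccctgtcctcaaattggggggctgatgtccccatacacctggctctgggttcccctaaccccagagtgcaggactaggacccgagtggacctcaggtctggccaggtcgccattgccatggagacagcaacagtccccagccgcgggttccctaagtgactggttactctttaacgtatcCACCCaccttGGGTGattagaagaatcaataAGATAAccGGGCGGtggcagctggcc
HNF4A P1: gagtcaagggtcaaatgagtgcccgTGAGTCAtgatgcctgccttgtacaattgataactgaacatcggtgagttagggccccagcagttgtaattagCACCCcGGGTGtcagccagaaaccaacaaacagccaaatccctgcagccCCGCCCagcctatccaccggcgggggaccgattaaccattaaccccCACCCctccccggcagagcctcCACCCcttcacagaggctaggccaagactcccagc
The P2 stretch held 1 GATA motif, 1 GC box and 2 CACCC boxes. The P1 stretch held 1 AP-1 motif, 1 GC box and 4 CACCC boxes. Neither held a match to the letters used for forkhead factors or to TATAAA. Only these letters were searched, and the P1 stretch holds close variants of the GATA and forkhead letters, TGATAA and ACAAACA. Among 35116 promoters of the same length, 9.17% held the GATA motif, 6.57% the AP-1 motif, 42.6% a GC box, 54.7% a CACCC box and 15.5% the forkhead motif.

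On the squamous side, TP63 was clearly above the floor. The stable libraries with SPRR1A and DsRed had a log2 TPM of 4.42 and 4.04, and the transient ones with SPRR1A and GFP had 4.85 and 5.05, or 16.4 to 33.2 TPM in all. Both transient libraries lay above both stable ones. TP63 exceeded GATA6 in each library, by 1.77-fold in stable DsRed to 2.23-fold in transient GFP cells. TP63 lies on chromosome 3 from 189596746 to 189897276. Its protein-coding transcripts in GENCODE 44 start in 2 regions, 5 of them from 189631389 to 189631516, which give the long TA forms, and 7 from 189789659 to 189789801, which give the ΔN forms typical of basal cells. The deposited values do not separate them. MIR944, a microRNA inside TP63, was listed at 0 throughout. Its relative TP73 was near the floor at 0.69, 1.44, 0.09 and 0.08.

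KLF4 and KLF5 changed places in their order between stable and transient cells. KLF4 lies on chromosome 9 from 107484852 to 107489769 and KLF5 on chromosome 13 from 73054976 to 73077538. The log2 TPM of KLF5 was 5.71 and 5.49 in the stable SPRR1A and DsRed libraries and 5.71 and 5.87 in the transient SPRR1A and GFP libraries. KLF4 was at 5.35, 5.22, 6.53 and 6.71. KLF5 therefore exceeded KLF4 by 1.28-fold and 1.20-fold in the stable libraries, while KLF4 exceeded KLF5 by 1.77-fold and 1.79-fold in the transient ones. A ratio within a library does not depend on how the library was scaled.

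GRHL2 was the steadiest of the expressed members. Its log2 TPM was 5.73 and 5.65 in the stable libraries with SPRR1A and DsRed and 5.48 and 5.67 in the transient libraries with SPRR1A and GFP, a range of 0.24. It exceeded GRHL1 by 13.6-fold and 11.9-fold in stable cells and by 6.28-fold and 6.66-fold in transient cells, where GRHL1 was at 2.83 and 2.94 against 1.97 and 2.08. GRHL3, the family member of the skin barrier, was at 2.03, 1.93, 2.28 and 2.29. GRHL2-DT and the pseudogene LOC100131593, which overlap the gene on chromosome 8 from 101492439 to 101681200, were listed at 0. RNU6-702P within GATA6 and the neighboring GATA6-AS1 were listed at 0 as well.

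To examine whether these factors differed with SPRR1A, each SPRR1A library was compared with its own control, with the study's 2-fold rule, a log2 difference above 1 or below -1. In the stable model 0 of the 9 members passed, where 0.234% of all entities did and 0.0915% of the well expressed ones. The largest difference was in TP63, which was 0.38 higher on the log2 scale (1.31-fold) in stable SPRR1A cells, from 16.4 to 21.4 TPM. Of the 9835 well expressed entities, 3.69% were as far from 0 or farther. FOXA1 was higher by 0.28 and KLF5 by 0.22, KLF4 by 0.12, GATA6 and GRHL2 by 0.07 each. FOXA2 and ELF3 were lower, with log2 differences of -0.18 and -0.15. The median of the 4 squamous or broad epithelial members was 0.17 and that of the 4 expressed gland-type members was -0.04, beside 0.06 over all well expressed entities.

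In the transient model 0 of the 9 members passed, where 0.227% of all entities did and 0.0591% of the well expressed ones. The log2 differences were -0.26 for FOXA2, -0.20 for TP63, -0.19 for GRHL2, -0.18 for KLF4, -0.16 for KLF5, -0.13 for GATA6, -0.03 for FOXA1 and 0.11 for ELF3. SPRR1A itself took 99031 TPM of the 1000000 in the transient SPRR1A library, and small directions turned with the scaling. With SPRR1A left out of the total, GATA6 was at 0.02, FOXA1 at 0.12 and ELF3 at 0.26. After centring on the median difference, GATA6 (0.06), FOXA1 (0.15), KLF4 (0.0043) and KLF5 (0.03) were above 0. The median over the 10154 well expressed entities was -0.18 in this model, so KLF4, KLF5, GRHL2 and TP63 lay within 0.03 of it. The median of the 4 squamous or broad epithelial members was -0.18 and that of the 4 expressed gland-type members was -0.08. ELF3 was 0.29 above the median of all, and 1.53% of the well expressed entities had a higher difference. After centring on the median, ELF3 had a difference of -0.21 in stable and 0.29 in transient cells, and TP63 had 0.33 and -0.02. Whether these values differ between the models was not tested.

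**Figure D2:**
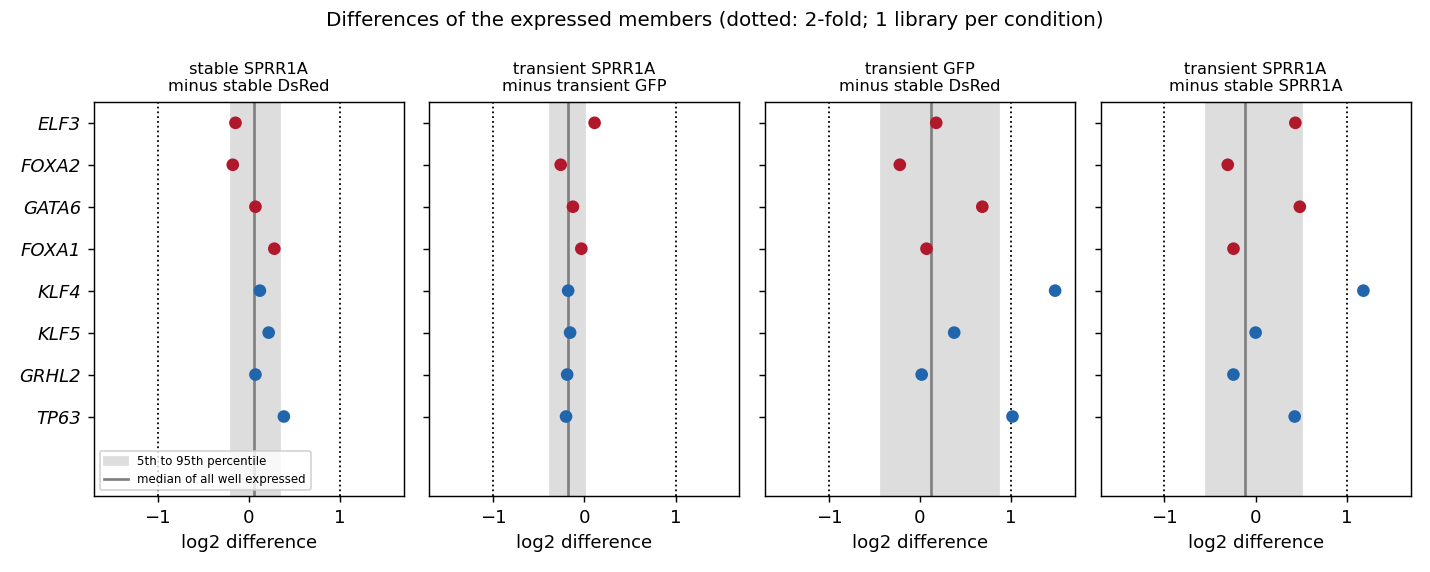
Log2 differences (horizontal axis) of the 8 expressed members in the 4 comparisons, with gland-type factors in red and squamous or broad epithelial factors in blue. The grey line and band give the median and the 5th to 95th percentile of the well expressed entities, and no point passes the dotted 2-fold lines in the SPRR1A comparisons, while KLF4 passes in both comparisons of transient with stable cells.

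Larger differences were found between the models. In transient GFP against stable DsRed cells, 2 of the 9 members passed the 2-fold rule and both were higher, KLF4 and TP63. In this comparison 1.92% of all entities passed and 1.75% were higher, and among the well expressed entities these shares were 3.46% and 3.21%. In transient SPRR1A against stable SPRR1A cells, only KLF4 passed among the 9 members, and it was higher. Here 0.903% of all entities passed and 0.658% were higher, and among the well expressed the shares were 1.39% and 1.12%. Each of these comparisons shares both of its libraries with the SPRR1A comparisons. The models differ in vector, reporter, transfection and culture, which cannot be told apart here. In addition, more cells with a transcript and more transcript per cell cannot be told apart in bulk RNA.

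KLF4 was at 37.4 and 40.7 TPM in stable cells with DsRed and SPRR1A, and at 104.5 and 92.4 TPM in transient cells with GFP and SPRR1A. The stable and transient libraries did not overlap. The log2 difference was 1.48 between the controls (2.80-fold) and 1.18 between the SPRR1A libraries (2.27-fold). Among the well expressed entities, 0.775% had a higher difference in the control pair and 0.711% in the SPRR1A pair. Their medians were 0.12 and -0.11, and relative to these KLF4 was higher by 1.36 and 1.30.

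TP63 was just past the threshold between the controls, with a log2 difference of 1.02 (2.02-fold), and at 0.43 (1.35-fold) between the SPRR1A libraries. Relative to the medians, these values were 0.89 and 0.54, so that TP63 did not pass on that scale, nor did it between the controls on the log2(TPM + 1) scale (0.97). GATA6 came next without passing, with 0.68 (1.61-fold) in the control pair and 0.49 (1.40-fold) in the SPRR1A pair. ELF3 was at 0.18 and 0.44, KLF5 at 0.38 and 0.00, FOXA1 at 0.07 and -0.24, GRHL2 at 0.02 and -0.24, and FOXA2 at -0.22 and -0.31. KLF4, TP63, GATA6 and ELF3 were higher in both transient libraries than in both stable ones. KLF5 was as well, but by only 0.0002 between the SPRR1A libraries. Because the share of all entities in this order was not counted, the order cannot be read as particular to these factors. FOXA2 was lower in transient cells by both differences, and after centring so were FOXA1 (-0.05 and -0.13) and GRHL2 (-0.11 and -0.13). With SPRR1A left out of the total, the SPRR1A pair gave 0.58 for ELF3, 0.15 for KLF5, -0.10 for FOXA1, -0.10 for GRHL2 and -0.16 for FOXA2.

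**Figure D3:**
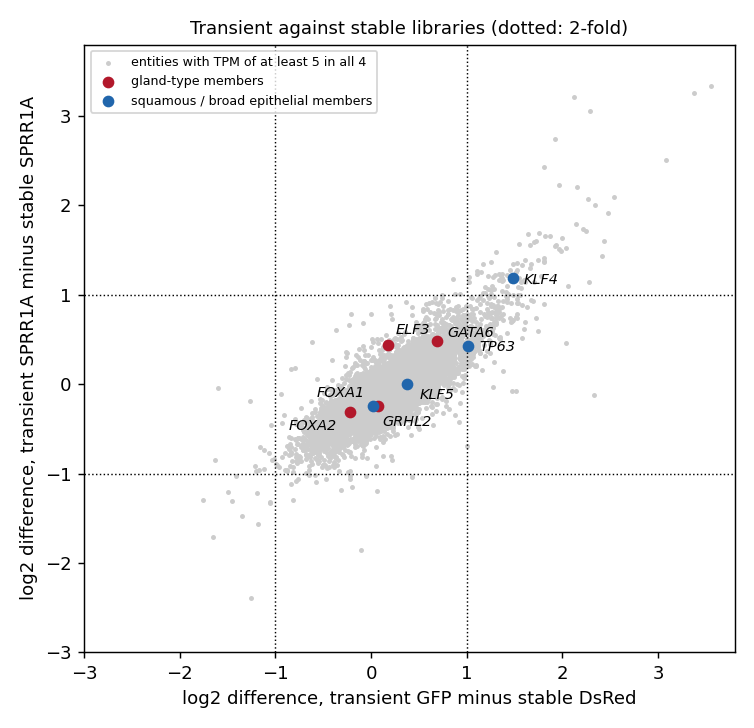
Log2 difference between transient and stable cells in the control libraries (horizontal axis) and in the SPRR1A libraries (vertical axis), with the 8 expressed members in color and, in grey, the entities that reach a TPM of 5 in all 4 libraries. KLF4 lies past the dotted 2-fold line on both axes (1.48 and 1.18), and TP63 lies just past it on the control axis (1.02).

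Markers of other cell types were looked up beside these differences. Of 6 immune markers, 3 (PTPRC, CD3E and CD14) were listed at 0, and the summed TPM of the list was 20.3 to 23.2 in stable and 40.0 to 42.2 in transient cells. Most of it was CD68, at a log2 TPM of 4.09, 3.99, 4.91 and 4.89, with CD79A at 0.13, 0, 2.50 and 2.09 and LYZ at 2.33, 2.15, 2.70 and 2.60. Of 7 fibroblast markers only COL1A1 was above the floor, and of 7 acinar markers only PRSS1, at 0.79, 0.64, 1.86 and 1.47. The part of these genes in the members' differences was not tested.

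The promoter of KLF4, the member with the widest range, is set beside those of KLF5, its relative with a range of 0.38. The 250 bases before the start are from RefSeq on GRCh38.p14, chr9:107489770-107490019 on the minus strand for KLF4, and chr13:73054726-73054975 and chr13:73058755-73059004 on the plus strand for the first and second start of KLF5. Capitals mark the same motifs as above.
KLF4: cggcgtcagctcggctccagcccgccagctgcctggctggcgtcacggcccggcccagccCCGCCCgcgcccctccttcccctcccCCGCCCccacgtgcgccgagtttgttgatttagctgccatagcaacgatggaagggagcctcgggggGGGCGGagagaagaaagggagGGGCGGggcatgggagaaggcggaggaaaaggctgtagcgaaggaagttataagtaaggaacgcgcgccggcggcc
KLF5 first start: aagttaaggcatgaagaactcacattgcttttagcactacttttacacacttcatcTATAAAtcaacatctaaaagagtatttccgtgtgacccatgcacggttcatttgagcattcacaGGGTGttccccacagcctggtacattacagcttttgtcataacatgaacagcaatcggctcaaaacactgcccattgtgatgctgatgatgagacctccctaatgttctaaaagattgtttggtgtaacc
KLF5 second start: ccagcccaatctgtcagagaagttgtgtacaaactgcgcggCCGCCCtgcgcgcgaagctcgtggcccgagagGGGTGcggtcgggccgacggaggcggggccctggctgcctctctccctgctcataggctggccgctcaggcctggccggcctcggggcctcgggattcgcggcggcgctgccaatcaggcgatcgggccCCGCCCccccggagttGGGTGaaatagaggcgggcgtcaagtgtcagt
The KLF4 stretch held 4 GC boxes and no match to the other motifs. The first KLF5 start had 1 TATAAA match and 1 CACCC box, and the second had 2 GC boxes and 2 CACCC boxes. The TATAAA match lies in the outer part of its stretch, away from the start, so it is a match of letters only. KLF4 holds the variant TATAAG, which was not searched, close to its start. TATAAA was found in 10.7% of the 35116 promoters.

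For comparison, the other KLF factors were examined, a family of zinc finger proteins that bind GC-rich and CACCC sequences. Of the 18 KLF genes, 6 were listed at 0 in all libraries. KLF10, induced by TGF-β and other signals, was the highest, with a log2 TPM of 5.93, 5.78, 7.08 and 7.15. Like KLF4, it was past 2-fold in both comparisons of transient with stable cells, with log2 differences of 1.37 and 1.15. KLF6, an early-response gene, was at 5.36, 5.06, 6.03 and 6.21, with 1.14 in the control pair and 0.68 in the SPRR1A pair. KLF2, best known from endothelium and T cells, went the other way, at 2.14, 2.21, 0.46 and 1.16, with -1.05 and -1.68. It was below a TPM of 5 in every library, from 1.38 to 4.63 TPM. Past 2-fold, 3 of the 18 KLF genes were higher in the control pair, KLF4 included, and 1 was lower. In the SPRR1A pair 2 were higher, KLF4 included, and 1 was lower. Of all entities, 1.92% passed in the control pair (1.75% higher) and 0.903% in the SPRR1A pair (0.658% higher). KLF4 and KLF5 are among the 7 well expressed KLF genes. The median difference of the 7 was 0.76 in the control pair and 0.43 in the SPRR1A pair. Over all well expressed entities it was 0.12 and -0.11. Under SPRR1A, 0 of the 18 passed in either model, where 0.234% of all entities did in the stable and 0.227% in the transient one. The 6 listed at 0 could not pass.

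**Figure D4:**
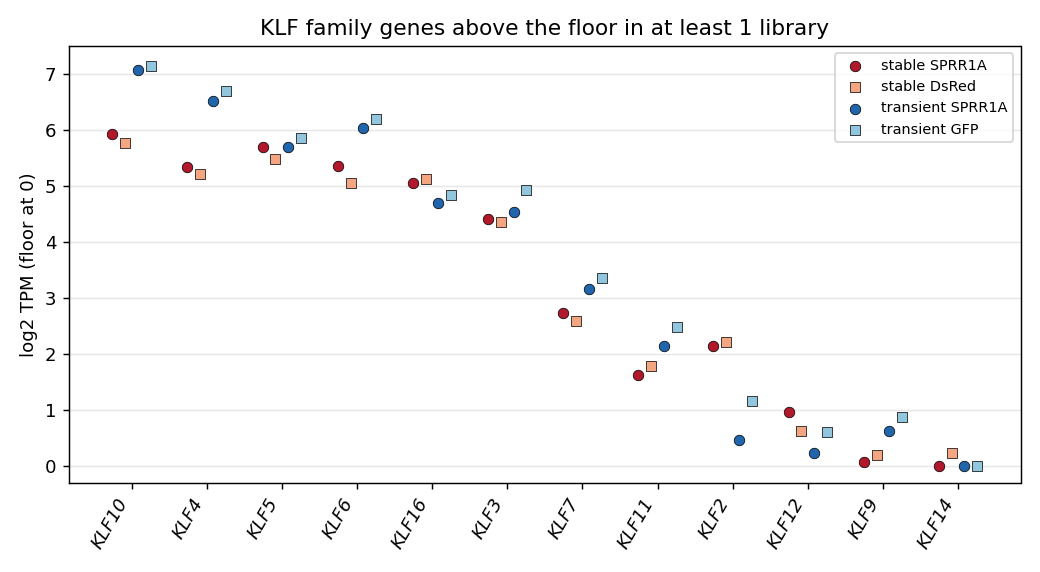
Log2 TPM (vertical axis, floor at 0) of the 12 KLF genes above the floor in at least 1 of the 4 libraries, ordered by their mean. KLF4, KLF6 and KLF10 sit higher in both transient libraries, KLF2 sits lower, and KLF5 stays within 0.38 on the log2 scale.

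The ETS relatives of ELF3 and the regulators that work beside GRHL2 and TP63 were then described. EHF, an epithelial ETS factor, was at 5.94, 5.58, 6.49 and 6.74, close to ELF3 in transient GFP cells (ELF3 to EHF ratio 0.946) and below it in stable DsRed cells (ratio 1.87). In the control and SPRR1A pairs EHF was higher by 1.16 and 0.54 and ELF1 by 1.21 and 0.37. SPDEF, a factor of mucus-secreting cells, was lower, with -1.59 in the control pair and -1.34 in the SPRR1A pair, and was below a TPM of 5 in transient cells. ELF4 was at 5.50 to 5.74. ELF3-AS1, which reaches into the 250 bases before the ELF3 start without overlapping the gene, was at 2.02 in stable DsRed cells, slightly lower in stable SPRR1A cells, and at 2.43 and 2.61 in transient cells. The repressor SNAI1 was at 1.84, 1.63, 3.37 and 3.37, past 2-fold in both comparisons (1.74 and 1.54), and was below a TPM of 5 in stable cells. SNAI2 was at 5.24, 5.06, 5.84 and 6.03, with 0.98 in the control pair, and did not pass. ZEB1, the repressor that opposes GRHL2, and ZEB2, TWIST1 and TWIST2 were listed at 0. The epithelial splicing factors ESRP1 and ESRP2 were at 6.29 to 6.80 and 5.52 to 5.77.

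Other regulators of each lineage were looked up from a pair of chosen lists, and the shares above the floor were not tested against each other. Of 16 squamous or basal regulators 11 were above the floor in all libraries, and of 18 gland-type or foregut regulators 5 were. In any single library, a looser measure, 24.1% to 25.2% of all entities were above it. Those entities include noncoding RNAs, and their share above the floor in all libraries was not counted. FOSL1, an AP-1 subunit (8.13 to 8.43), the homeobox factor PITX1 (6.41 to 6.81) and ZBED2 (5.79 to 6.07) were the highest of the first list. SOX9 of the ductal lineage (5.46 to 5.66), the nuclear receptor PPARG (5.18 to 5.40) and the foregut homeobox factor HHEX (3.04 to 3.39) were the highest of the second, while PDX1, GATA4, ONECUT1 and CDX2 were among 12 listed at 0. Between the controls SOX15 and OVOL1 were higher by 1.33 and 1.02 and TP73 was lower (-1.36), and between the SPRR1A libraries OVOL1 was higher by 1.15. OVOL1 was below a TPM of 5 in stable cells, and TP73 was below it in every library. With SPRR1A, 0 of the 18 and 0 of the 16 passed in either model.

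**Figure D5:**
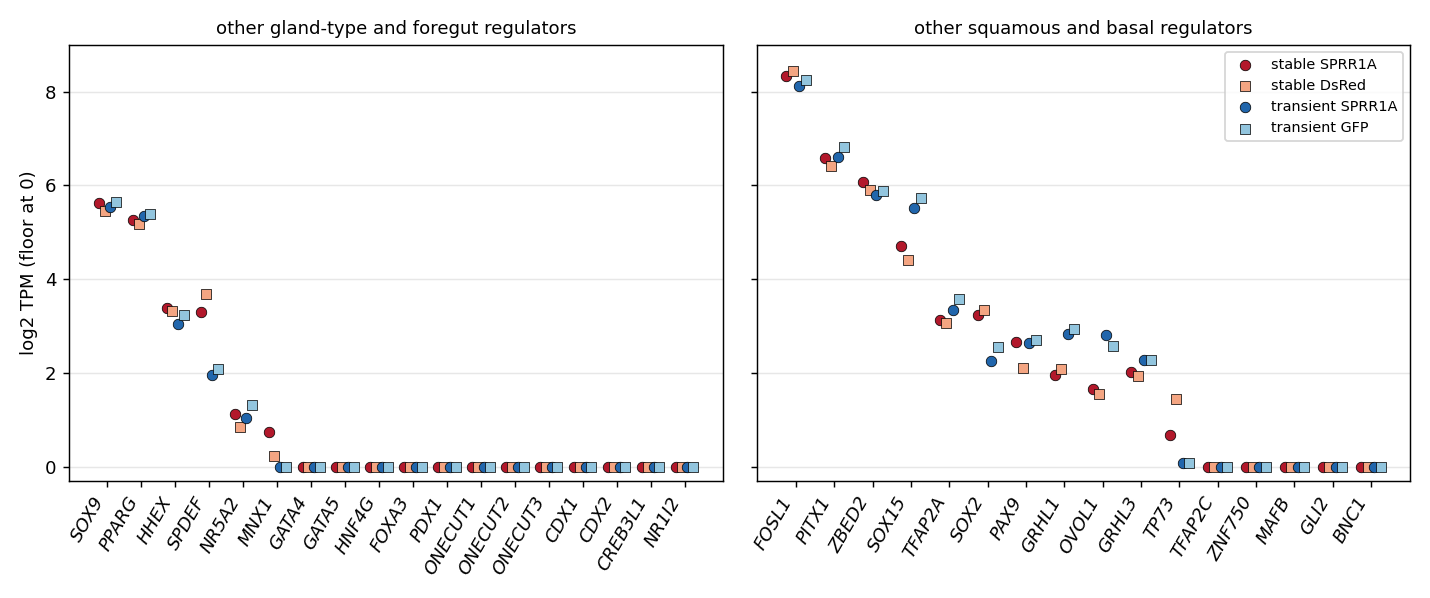
Log2 TPM (vertical axis, floor at 0) of other gland-type and foregut regulators (left) and other squamous and basal regulators (right) in the 4 libraries. On the left 12 of 18 genes lie at 0 in all 4 libraries, and on the right 5 of 16 do.

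Genes usually counted among the products of these factors were described as well. Of 18 squamous or TP63-linked products, 16 were above the floor in all libraries. S100A2 was at 10.61, 10.70, 10.22 and 10.27, KRT5, the basal keratin, at 9.96, 9.59, 10.12 and 10.30, and SFN at 9.64, 9.80, 9.60 and 9.85. The desmosomal cadherin DSG3 was at 4.02, 3.49, 4.77 and 5.01 and was the only product of this list past 2-fold between the controls (1.52). KRT14, the partner of KRT5, was near the floor at 1.03, 2.04, 1.83 and 1.87, and passed the rule narrowly in the stable model, with 2.05 TPM in SPRR1A against 4.11 TPM in DsRed cells. It was the single gene of the list to pass in an SPRR1A comparison.

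Of 18 gland-type products, 12 were listed at 0 in all libraries, among them the HNF4A-linked genes APOA1, MTTP, FABP1, CDH17 and LGALS4. CEACAM6 (10.34 to 10.84) and AGR2 (8.56 to 9.32) were high. TFF1, a trefoil peptide of gastric mucus, was at 5.31 and 5.35 in stable SPRR1A and DsRed cells, at 1.49 in transient SPRR1A cells and listed at 0 in transient GFP cells. Between the SPRR1A libraries its log2 difference was -3.81. In the transient model it passed the 2-fold rule, higher with SPRR1A at 2.82 TPM, but no fold is given because GFP is at the floor. TSPAN8 was at 1.74 and 0.26 in the stable libraries, a log2 difference of 1.48 near the floor, and listed at 0 in both transient ones. The 8 epithelial genes linked to GRHL2 were all above the floor in each library, led by EPCAM (8.88 to 9.16), CLDN4 (8.79 to 9.04) and CDH1 (7.03 to 7.75). In the 4 comparisons 0 of the 8 passed 2-fold, where 0.227% to 1.92% of all entities passed.

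The patterns most like those of GATA6 and KLF4 were sought among 9657 entities that reach a TPM of 5 in all 4 libraries, by the root mean square difference of log2 TPM after subtracting each gene's own mean. For GATA6 they were SOD2 (0.0083), LMBR1L (0.017) and UGDH (0.017), against a median of 0.302 over all. For KLF4 they were SNORA3B (0.016), KDM3A (0.030) and HCAR2 (0.036), against a median of 0.667. With 4 libraries such closeness is a description.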

How the data were processed

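RNA from 4 PK-1 cultures was sequenced as stranded, paired-end mRNA libraries. With Strand NGS and its default settings, the authors mapped the reads to transcripts of hg38 and scaled them to TPM. The deposited values are log2 TPM with a floor at 0. The software version, annotation release, strand setting and handling of reads shared by several genes are not given in the sources used here. Reads of overlapping or antisense genes may therefore be shared.

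Log2 differences were computed for each entity and counted past 2-fold. The members and gene lists were chosen with earlier results of these data known. Named are the members, up to 3 of the highest genes above the floor and those past 2-fold in each list, overlapping genes, the closest patterns, and genes picked after their values were seen. Motifs and housekeeping genes were also chosen afterwards. A few genes were taken off the lists and are not reported here. Alternatives were log2(TPM + 1), log2(TPM + 0.1), other totals, centring on the median, a 1.5-fold rule and a filter at a TPM of 5. Promoters came from RefSeq (GRCh38.p14) for 7 of the 9 members, without FOXA2 and GRHL2. The calculations were tested on simulated data with Python 3.11.15, numpy 2.4.6, pandas 2.3.3 and matplotlib 3.10.9.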

Additional observations from a re-analysis of the deposited data

How the results depend on the processing

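No paired analysis was possible because there is 1 library per condition, and for the same reason no library could be left out. In transient GFP against stable DsRed cells the number of members past the threshold went from 2 to 1 with log2(TPM + 1) and from 2 to 1 with centring on the median. In both cases the member lost was TP63, with a log2 difference of 0.97 and 0.89, and KLF4 stayed past it. With the 1.5-fold rule GATA6 joined KLF4 and TP63, for 3 members. The share of all entities past 1.5-fold was not counted. In this comparison 10.7% of the well expressed entities were as far from 0 as GATA6 or farther. The other counts of members stayed the same under the alternatives, including 0 of 9 for SPRR1A in both models. Of 180 recomputed differences of members, 178 stayed on the same side of the 2-fold threshold, and 0 of those past it changed sign, with the largest shift at 0.18. The 180 include those of HNF4A, listed at 0 throughout, which could not pass the threshold. Among 160 differences of the 8 expressed members, 9 changed sign. For SPRR1A in transient cells these were GATA6 and FOXA1 with SPRR1A left out of the total or with centring, and KLF4 and KLF5 with centring. Between the controls they were FOXA1 and GRHL2 with centring (-0.05 and -0.11), and between the SPRR1A libraries KLF5 without small RNAs (-0.0054). Depth in reads is unknown, and HNF4A could not be compared below a TPM of 1.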
